A study of Mus musculus with 5 samples.

Results

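The subcortical maternal complex and its NLRP relatives are described here by 8 genes that were listed by symbol, Nlrp2, Nlrp4f, Nlrp5, Nlrp14, Ooep, Tle6, Padi6 and Npm2, all of which are among the 22026 genes of the files. The list was not drawn up by level or by difference, but it was chosen with earlier results of these data known. RNA was sequenced from mouse embryos of strain B6D2F1 at the 4-cell stage, all made by nuclear transfer, in which a donor nucleus replaces the nucleus of the oocyte. Each of the 5 groups is 1 library: untreated embryos (labelled NT), luciferase-treated embryos (labelled SCNT), H3.3 knockdown embryos (NT), in which that histone variant was depleted, knockdown embryos with H3.3 mRNA (NT), and knockdown embryos with H3.2 mRNA (SCNT). The last library is named by its title, since its treatment tag says H3.3 mRNA instead. The donor cell, the knockdown reagent and the number of embryos pooled are not given in the sources used here. There is no replicate and therefore no error, no interval and no p-value on any value below; the distance between the untreated and luciferase libraries is the available measure of how far apart libraries without a knockdown can lie.

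The subcortical maternal complex is a large protein assembly of the oocyte and early embryo that sits beneath the plasma membrane and is kept away from regions of contact between blastomeres. Its proteins are made from transcripts laid down during oocyte growth, and females that lack several of them produce embryos that stop in the first cleavages. NLRP5 (also called MATER), OOEP (FLOPED) and TLE6 form its core. PADI6, a peptidylarginine deiminase of the cytoplasmic lattices, and KHDC3 (FILIA) are tied to that core, and NLRP2, NLRP4F and NLRP14 are oocyte members of the NOD-like receptor family, whose other branches act in innate immunity. NPM2 is not a component of the complex: it is nucleoplasmin, the histone chaperone of the oocyte nucleus, grouped here as another maternal-effect product needed for early cleavage.

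The start regions of the 3 core genes are shown because these genes encode 1 assembly. Their levels, which were dissimilar across the libraries, are given after the sequences. Whether the start regions bear on those levels was not tested. Promoter windows of 300 bases around the start of a transcript were taken from RefSeq on GRCm38.p6, and 6 of the 8 genes had 1 or more (Nlrp2, Nlrp4f, Nlrp5, Ooep, Tle6 and Padi6). Capitals mark matches to CANNTG, the E-box bound by helix-loop-helix factors, searched on both strands, on which it reads the same. Of all 32851 windows in the table, 72.3% hold at least 1 match.
Ooep (chr9:78378539-78378838, minus strand): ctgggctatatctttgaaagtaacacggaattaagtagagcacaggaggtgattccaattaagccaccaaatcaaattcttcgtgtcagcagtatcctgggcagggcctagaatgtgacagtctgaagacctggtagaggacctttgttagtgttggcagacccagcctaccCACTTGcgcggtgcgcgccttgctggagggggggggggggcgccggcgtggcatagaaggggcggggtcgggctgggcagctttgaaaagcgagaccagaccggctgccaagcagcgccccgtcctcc
Nlrp5, upstream start (chr7:23385639-23385938, plus strand): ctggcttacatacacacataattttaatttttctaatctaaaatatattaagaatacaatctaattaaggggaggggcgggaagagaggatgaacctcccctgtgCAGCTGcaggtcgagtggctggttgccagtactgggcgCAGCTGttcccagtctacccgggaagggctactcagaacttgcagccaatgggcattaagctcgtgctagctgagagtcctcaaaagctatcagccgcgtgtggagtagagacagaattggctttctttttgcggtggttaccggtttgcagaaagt
Tle6, upstream start (chr10:81600851-81601150, minus strand): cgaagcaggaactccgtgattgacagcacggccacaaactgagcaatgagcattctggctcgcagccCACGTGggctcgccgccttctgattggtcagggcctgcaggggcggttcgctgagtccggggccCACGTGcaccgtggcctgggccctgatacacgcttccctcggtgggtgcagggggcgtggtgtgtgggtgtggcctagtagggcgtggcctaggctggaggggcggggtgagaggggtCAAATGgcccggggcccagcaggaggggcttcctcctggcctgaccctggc
The Ooep window held 1 match, the Nlrp5 window 2 and the Tle6 window 3. As many as 2 were held by 39.6% of all windows, and as many as 3 by 17.6%. In the Tle6 window 2 of the matches read CACGTG, a form present in 7.15% of all windows. The table gives a further start for Nlrp5, whose window held 2 matches, and for Tle6, whose window held 4 (as many in 6.49% of all windows) and 0 that read CACGTG. The matches are letters in a window and carry no measurement of binding, and these coordinates are not those of mm9, on which the levels were estimated.

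Levels are given in FPKM (fragments relative to the length of the transcript and to the size of the library, as deposited), which allows levels of different genes to be set side by side. Differences are of log2(FPKM + 1), so that changes at low levels are understated. All 8 genes were among the 13144 with a mean of at least 1 FPKM, over which every background share is given, and a difference counted from 4-fold (2 on the log2 scale). The sum of the H3.3 genes H3f3a and H3f3b was 5266 FPKM in untreated, 5734 FPKM in luciferase, 664 FPKM in knockdown, 467 FPKM in H3.3 mRNA and 420.1 FPKM in H3.2 mRNA embryos. The library labelled H3.3 mRNA thus had no more listed H3.3 transcript than the knockdown, and whether these gene models would count the added mRNA was not tested. The depth is unknown. Exact zeros were written as 0 in the files of the 3 NT libraries and as 0.00 in those of the 2 SCNT libraries, so the NT and SCNT labels also separate the files by format. Of 13 fibroblast markers, 11 were listed at 0 in untreated, 8 in luciferase and 12 in each kind of knockdown embryos, and their summed level was 15.1 to 69.5 FPKM, nearly all from Vim and Fn1 outside the luciferase library. Of 16 cumulus and granulosa markers, 9 to 12 were listed at 0, Has2, Ptx3, Fshr and Lhcgr among them in every library, while their summed level was 549 to 1197 FPKM, of which Amhr2 gave 142 to 1056 FPKM. The cumulus genes Tnfaip6 and Vcan stood at 185 and 62.0 FPKM in untreated embryos, at 0 in luciferase embryos and at 0 and 2.05 FPKM in the knockdown. Amhr2 went the other way, at 142, 472 and 1056 FPKM in untreated, luciferase and knockdown embryos. Of 13 oocyte genes, 9 to 13 were above 0. Of 15 early embryo genes, 10 to 14 were above 0, with a summed level of 3786 to 7432 FPKM. In libraries of whole embryos, fewer cells of a type and less RNA per cell cannot be told apart.

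The transcripts of the 3 core genes did not keep a fixed proportion. Tle6, a Groucho-family corepressor that is a core subunit in the oocyte, stood at 114 FPKM in untreated, 90 FPKM in luciferase, 117 FPKM in knockdown, 108 FPKM in H3.3 mRNA and 109 FPKM in H3.2 mRNA embryos. The highest of these was 1.3 times the lowest. Its log2 range over the 5 libraries, 0.37, was matched or undercut by 23 of the 13144 genes, itself included (0.17%), against a median range of 2.88. Under 3 other scalings the range was 0.41 to 0.62 and the share 0.32% to 1.05%. A listed 0 can widen a range, and 8520 of the 13144 genes were above 0 in every library. The ranges of Tle6 and of the other genes were not ranked among those 8520 alone.

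Ooep, whose KH-domain protein joins NLRP5 and TLE6, varied most of the 3 core genes. It stood at 146 FPKM in untreated, 19.8 FPKM in luciferase, 80.4 FPKM in knockdown, 27.0 FPKM in H3.3 mRNA and 8.2 FPKM in H3.2 mRNA embryos. The untreated library was 17.9 times the H3.2 mRNA library, and the knockdown lay nearer to the untreated library than any other did. The log2 range of Ooep, 4.00, was as large as or larger than that of 71.7% of tested genes. Among all 8 genes its range was the widest as deposited, but with upper-quartile scaling it was 3.35 and that of Nlrp14 4.25.

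Nlrp5, the leucine-rich repeat subunit of the core, had another pattern again. It stood at 101 FPKM in untreated and 109.7 FPKM in H3.2 mRNA embryos, and at 23.9, 39.2 and 22.0 FPKM in luciferase, knockdown and H3.3 mRNA embryos. The untreated and H3.2 mRNA libraries, which carry different labels and were at opposite ends for Ooep, were thus the high pair for Nlrp5.

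**Figure D1:**
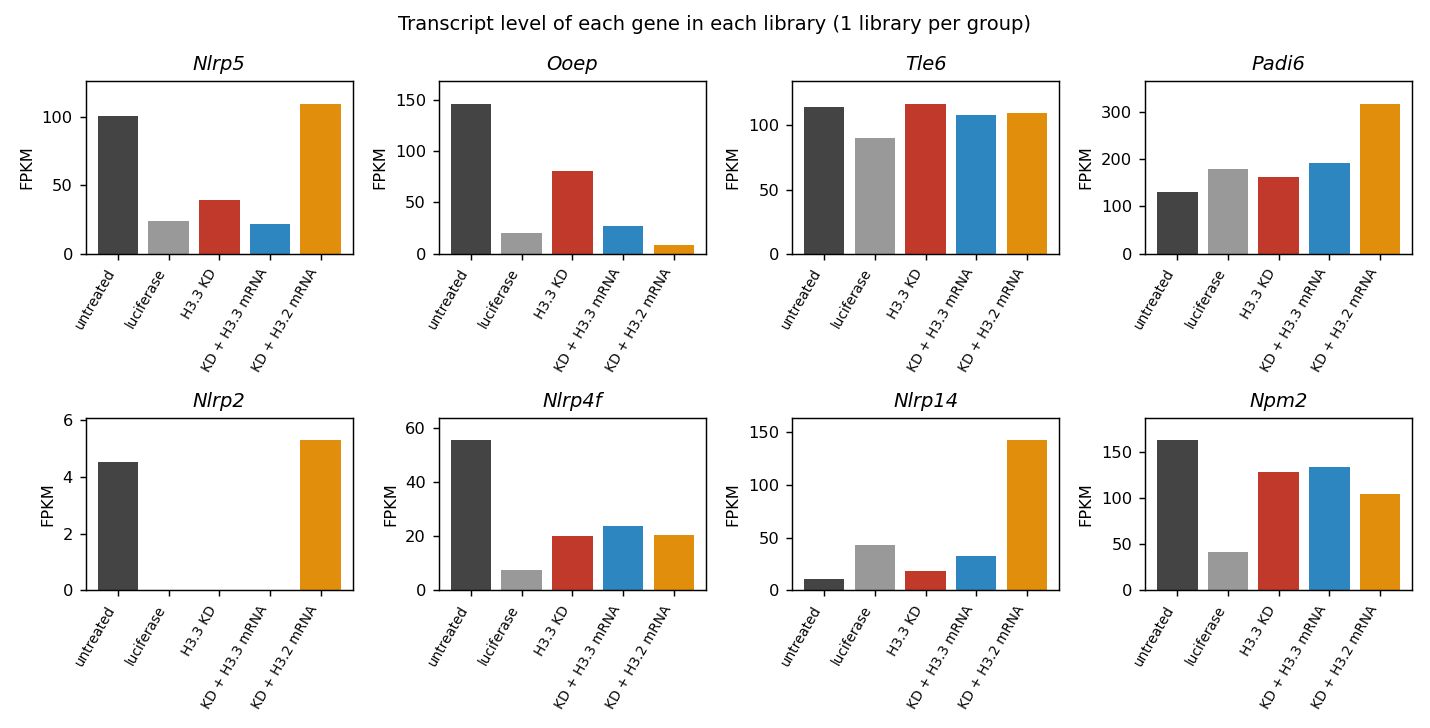
Bars give the FPKM of each gene in each of the 5 libraries, on a linear axis from 0 that is scaled separately for each gene; there is 1 library per group and so no error bar. Tle6 lies between 90 and 117 FPKM throughout, Ooep is highest in untreated embryos at 146 FPKM, and Nlrp14 is highest in the H3.2 mRNA library at 142 FPKM.

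Padi6, the lattice deiminase, was the most abundant of the 8 genes in every library but the untreated. It stood at 130.2 FPKM in untreated, 179 FPKM in luciferase, 162 FPKM in knockdown, 191 FPKM in H3.3 mRNA and 317 FPKM in H3.2 mRNA embryos, and no difference in the 7 comparisons reached 4-fold. Its highest level was 2.43 times its lowest, a log2 range of 1.28 beside 1.95 for Npm2. That order turned with upper-quartile scaling (1.96 and 1.52) and quantile normalization (1.76 and 1.73). Npm2, the oocyte nucleoplasmin, led the group in untreated embryos with 163 FPKM. It stood at 41.3 FPKM in the luciferase library and at 128, 134 and 104 FPKM in the 3 knockdown libraries, so the luciferase library alone was low.

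The 3 further NLRP genes also had dissimilar levels across the libraries. Nlrp14, an oocyte and germline NLRP gene, stood at 10.8 FPKM in untreated, 43.1 FPKM in luciferase, 18.3 FPKM in knockdown, 32.1 FPKM in H3.3 mRNA and 142 FPKM in H3.2 mRNA embryos. It was the only one of the 8 for which the H3.2 mRNA library stood more than 3 times above every other library, and it was 13.2 times the untreated level there. Nlrp4f, a member of the Nlrp4 cluster family, stood at 55.5 FPKM in untreated and 7.72 FPKM in luciferase embryos. In the 3 knockdown libraries it stood at 20.1, 23.6 and 20.6 FPKM, which is a span of 1.17 times. Nlrp2, an NLRP gene of oocytes and placenta, was listed at 0 in luciferase, knockdown and H3.3 mRNA embryos and stood at 4.53 and 5.28 FPKM in untreated and H3.2 mRNA embryos. It passed the filter on the strength of those 2 low values, and no fold is given against a listed 0. In the counts below, a call of Nlrp2 from or to a listed 0 follows largely from how it passed the filter.

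Added together, the 8 genes came to 725 FPKM in untreated, 404 FPKM in luciferase, 565 FPKM in knockdown, 538 FPKM in H3.3 mRNA and 817 FPKM in H3.2 mRNA embryos. The highest sum was thus in the H3.2 mRNA library, to which Padi6 gave 38.8% and Nlrp14 17.4%. In the untreated library those genes gave 18.0% and 1.48%, whereas Npm2 gave 22.4% and Ooep 20.2%. Such shares are not altered by multiplying a library by 1 factor, as upper-quartile and median-of-ratios scaling do, but they are altered by quantile normalization.

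Within the core trio the transcript shares moved widely. Ooep made up 40.5% of the summed FPKM of Nlrp5, Ooep and Tle6 in untreated and 34.0% in knockdown embryos, 14.8% in luciferase, 17.1% in H3.3 mRNA and 3.61% in H3.2 mRNA embryos. Nlrp5 made up 27.9%, 16.6%, 17.9%, 13.98% and 48.3% in the same order. Per Tle6 transcript, Ooep was at 1.28 in untreated, 0.69 in knockdown, 0.25 in H3.3 mRNA, 0.22 in luciferase and 0.075 in H3.2 mRNA embryos. The luciferase and H3.3 mRNA libraries were alike in this ratio, and the knockdown stood between them and the untreated library.

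**Figure D2:**
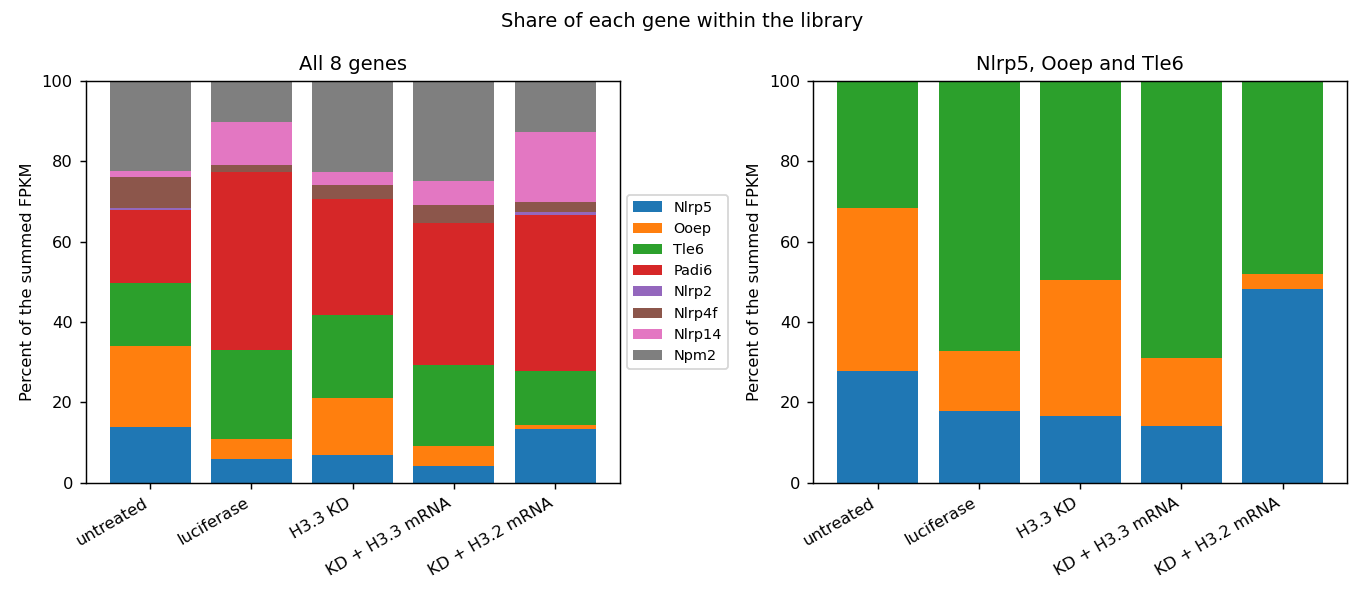
Stacked bars give each gene as a percent of the summed FPKM of all 8 genes (left) and of the core genes Nlrp5, Ooep and Tle6 (right) in each library. The Ooep band of the right panel runs from 40.5% in untreated to 3.61% in H3.2 mRNA embryos.

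The controls were compared first, since neither the untreated nor the luciferase library carries the knockdown. The group was mostly lower in the luciferase library: 4 of the 8 genes were at least 4-fold lower and 0 at least 4-fold higher, against 13.4% and 23.5% of all tested genes (9.17% and 28.6% with upper-quartile scaling, 15.8% and 17.1% with quantile normalization). The lower genes were Ooep (log2 difference -2.82), Nlrp4f (-2.70), Nlrp2 (-2.47, listed at 0) and Nlrp5 (-2.03). Npm2 was just short of the threshold at -1.95, and Nlrp14 went the other way at 1.91, a ratio of 4.01 in plain FPKM. With upper-quartile scaling the difference of Nlrp5 was -1.40 and that of Nlrp14 2.51, so that their sides of the threshold were exchanged. With a pseudocount of 10 FPKM Ooep alone was lower by 4-fold. Tle6 and Padi6 differed by -0.34 and 0.45, and the sign for Tle6 turned with upper-quartile scaling, to 0.30. The median of the group was -1.99, and that of all tested genes 0.02.

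The related lists did not all go one way in this pair. Of 13 oocyte genes, which encode zona proteins, secreted factors and oocyte regulators, 10 were at least 4-fold lower and 0 higher (median -4.02), and their summed FPKM was 5673 in untreated against 288 in luciferase embryos. Of 26 other maternal-effect genes past the filter, 7 were lower and 2 higher (median -0.54). Of 12 early embryo genes past the filter, 0 were lower and 3 higher (median 0.72), and of 8 paralogs of the non-NLRP genes, 0 were lower and 3 higher (median 0.95). Of 8 cumulus and granulosa markers past the filter, 2 were lower and 1 higher (median 0.22), and 4 differences were positive. The lower markers were Tnfaip6 and Vcan, with differences of -7.54 and -5.98 to a listed 0. The part of such cells in the values of the group was not tested. Of 10 housekeeping genes, 1 was lower and 0 higher (median -0.10). The 2 libraries of this pair carry different source labels, NT and SCNT, and the label cannot be told apart from the treatment.

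**Figure D3:**
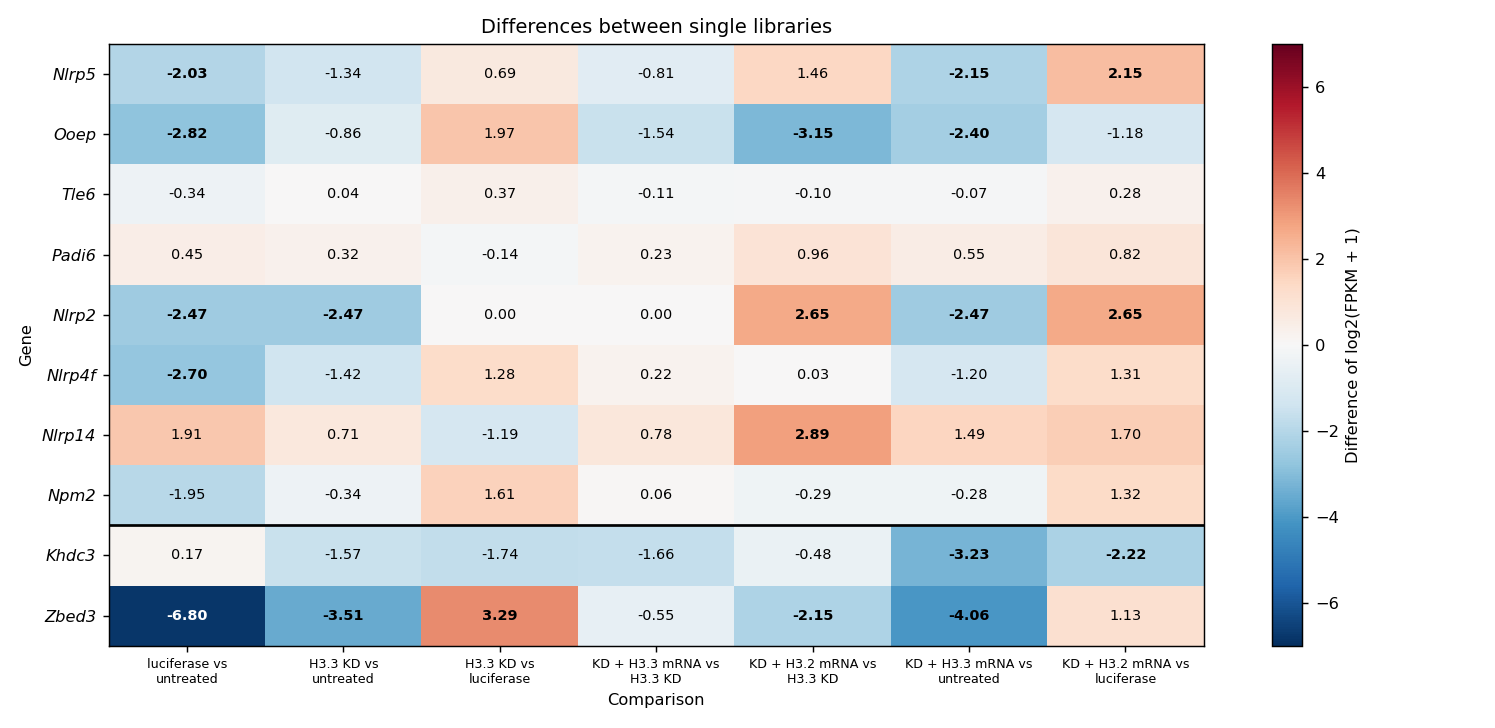
Cells give the difference of log2(FPKM + 1) of each gene in each of 7 comparisons between single libraries, with red for higher and blue for lower in the library named first and bold type from 2 in either direction; the genes under the line, Khdc3 and Zbed3, are further partners of the complex. Ooep and Nlrp14 have the outermost values among the upper 8 genes, -3.15 and 2.89, both for H3.2 mRNA against the knockdown.

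The knockdown library was compared with each control in turn. With 1 library per group, an effect of H3.3 loss cannot be told apart from other differences between libraries. Against the untreated library, 1 of the 8 genes was at least 4-fold lower and 0 were higher (15.6% and 16.8% of all tested genes). That gene was Nlrp2, listed at 0 in the knockdown, so its call follows largely from how it passed the filter. Nlrp4f (-1.42) and Nlrp5 (-1.34) were lower by less than the threshold, at 2.76 and 2.57 times under the untreated level, and Ooep stood 1.82 times under it. Nlrp14 was 1.7 times over it. Tle6, Padi6 and Npm2 were within 1.27 times.

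Against the luciferase library, 0 of the 8 genes were lower and 0 higher at 4-fold, where 18.9% and 9.74% of all tested genes were (14.4% and 12.5% with quantile normalization). Ooep came nearest, with a log2 difference of 1.97 and 4.05 times the luciferase level in plain FPKM. It passed 4-fold with a pseudocount of 0.1 FPKM, with quantile normalization and with median-of-ratios scaling. Npm2 was 3.1 times and Nlrp4f 2.61 times the luciferase level, and Nlrp14 stood 2.36 times under it. The knockdown and luciferase libraries carry different source labels. Both knockdown comparisons use the same knockdown library, and their opposite signs for Ooep, Nlrp4f, Nlrp5, Nlrp14, Npm2 and Padi6 follow from where the controls lie.

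For those 6 genes the knockdown lay strictly between the controls, which 28.2% of all tested genes did, and 35.6% of the 8520 genes above 0 in every library. Nlrp4f stood at 55.5, 20.1 and 7.72 FPKM in untreated, knockdown and luciferase embryos, Ooep at 146, 80.4 and 19.8 FPKM, and Npm2 at 163, 128 and 41.3 FPKM. Tle6 stood above both controls in the knockdown, at 1.03 times the untreated level. Nlrp2 was at 0 in both the knockdown and the luciferase library.

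**Figure D4:**
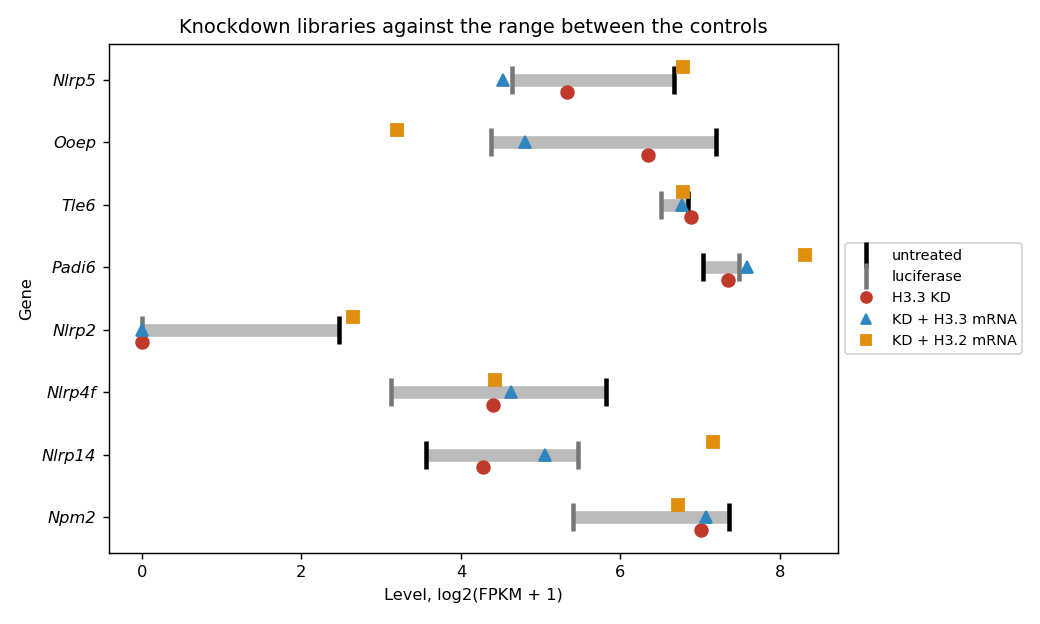
Grey bars join the untreated (black tick) and luciferase (grey tick) levels of each gene on a log2(FPKM + 1) axis, and symbols give the knockdown (circle), H3.3 mRNA (triangle) and H3.2 mRNA (square) libraries. The circles lie inside the bars for 6 of the 8 genes, and the squares lie outside for Nlrp5, Ooep, Padi6, Nlrp2 and Nlrp14.

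Knockdown embryos with H3.3 mRNA were compared with the knockdown alone, both labelled NT. Of the 8 genes, 0 were lower and 0 higher by 4-fold, against 10.1% and 16.4% of all tested genes. Ooep stood lower with H3.3 mRNA, at 27.0 against 80.4 FPKM (log2 difference -1.54), and Nlrp5 at 22.0 against 39.2 FPKM (-0.81). Nlrp14 stood higher, at 32.1 against 18.3 FPKM (0.78). The other 5 genes differed by 0.23 or less in either direction. Against the untreated library, 3 of the 8 genes were lower and 0 higher by 4-fold (13.8% and 20.6% of all tested genes, 10.3% and 23.9% with upper-quartile scaling), namely Nlrp2 (-2.47, listed at 0), Ooep (-2.40) and Nlrp5 (-2.15). With upper-quartile scaling 1 gene was lower, since Ooep (-1.92) and Nlrp5 (-1.67) no longer reached the threshold. The H3.3 mRNA library lay strictly between the controls for 5 of the 8 genes, as for 33.1% of all tested genes and 39.4% of those above 0 in every library. It was below both controls for Nlrp5, at 22.0 against 23.9 FPKM in the lower control, and above both for Padi6, at 191 against 179 FPKM in the higher control. With quantile normalization 3 genes lay between the controls.

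The library named H3.2 mRNA, the add-back with the replication-coupled histone, carries another source label than the knockdown, and that label cannot be told apart from the treatment in this pair. Of the 8 genes, 1 was lower and 2 were higher by 4-fold, against 9.11% and 19.5% of all tested genes (11.8% and 13.9% with quantile normalization). Ooep was lower (log2 difference -3.15, 9.8 times under the knockdown), and Nlrp14 (2.89, 7.77 times over it) and Nlrp2 (2.65, from a listed 0) were higher. Nlrp5 stood 2.8 times and Padi6 1.95 times over the knockdown, whereas Nlrp4f, Tle6 and Npm2 were within 1.23 times of it.

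Against the luciferase library, which shares its SCNT label, the H3.2 mRNA library was higher by 4-fold for 2 of the 8 genes and lower for 0, against 10.4% and 9.84% of all tested genes. These genes were Nlrp2 (2.65, from a listed 0) and Nlrp5 (2.15, at 109.7 against 23.9 FPKM). The call of Nlrp2 follows largely from how it passed the filter. In this pair 7 of the 8 genes had a positive difference and the median was 1.31, beside a median of 0.00 over all tested genes. Ooep was the exception, at 8.2 against 19.8 FPKM (-1.18). The H3.2 mRNA library was the highest of the 5 for Nlrp2, Nlrp5, Nlrp14 and Padi6, that is for 4 of the 8 genes, where it was the highest for 19.7% of all tested genes. Its lead over the untreated library was narrow for Nlrp2 (5.28 against 4.53 FPKM) and Nlrp5 (109.7 against 101 FPKM). With quantile normalization the Nlrp2 difference was -3.50 for luciferase against untreated and 1.86 for H3.2 mRNA against luciferase. The untreated library was then the highest for Nlrp2. The H3.2 mRNA library lay strictly between the controls for Nlrp4f, Tle6 and Npm2, 3 of the 8, as did 34.2% of all tested genes and 38.2% of those above 0 in every library, and with upper-quartile scaling for 1.

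Transcript length moved with these differences. Across 12972 genes with a known length, the Spearman rank correlation of length with the difference was 0.35 for H3.2 mRNA against the knockdown, 0.29 for H3.3 mRNA against the knockdown and -0.24 for the knockdown against the luciferase library; genes are not independent replicates. The longest NLRP transcripts are 3272 to 3551 bases long in the GENCODE annotation, those of Ooep, Tle6 and Padi6 2015 to 2333 bases, and that of Npm2 997 bases. Whether the longest transcript is the one present in these embryos was not tested, and a shorter one would change the correction for its gene. With the length trend removed at these lengths, the differences for H3.2 mRNA against the knockdown were -2.92 for Ooep, 2.61 for Nlrp14, 2.32 for Nlrp2 and 1.10 for Nlrp5. At these lengths the first 3 stayed past 4-fold. The difference of Npm2, which had the shortest of these lengths, went from -0.29 to 0.99. The difference of Npm2 also went from 1.61 to 0.76 for the knockdown against luciferase and from 0.06 to 0.87 for H3.3 mRNA against the knockdown.

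Sharing of sequence with other genes was low for most of the group. Of the windows of 51 bases, the read length, in the longest transcript of each gene, 0% of Nlrp14, Padi6 and Npm2 also occurred in a transcript of another gene, and 0.75% to 1.29% of those of Nlrp2, Ooep and Tle6. The share was 6.71% for Nlrp4f, with Nlrp4g and Nlrp4a among the genes that held them, and 8.75% for Nlrp5, with its pseudogene copy Nlrp5-ps. A division of reads between those copies is uncertain for Nlrp4f and Nlrp5.

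The 2 other reported partners of the complex had patterns of their own. Khdc3, the gene of the KH-domain protein FILIA, which is listed under its older symbol 2410004A20Rik, stood at 207 FPKM in untreated, 233 FPKM in luciferase, 68.9 FPKM in knockdown, 21.1 FPKM in H3.3 mRNA and 49.2 FPKM in H3.2 mRNA embryos. Both controls were above all 3 knockdown libraries, by 3 times or more, which was the case for none of the 8 genes. Of its windows of 51 bases, 42.7% also lie in another annotated gene, Gm20509. Zbed3, which encodes a zinc-finger protein reported to bind the complex, stood at 4895 FPKM in untreated, 43.0 FPKM in luciferase, 427 FPKM in knockdown, 292 FPKM in H3.3 mRNA and 95.3 FPKM in H3.2 mRNA embryos. The untreated library was 114 times the luciferase library, a log2 range of 6.80 that 96.8% of tested genes did not exceed.

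The remaining NLRP family was examined as a list of 16 genes, of which 14 were in the files and 10 passed the filter. Nlrp1a, Nlrp1b, Nlrp3 and Nlrp10, among them NLRP genes of inflammasomes, were listed at 0 in every library. Nlrp6 and Nlrp12 of the same list were not. Nlrp6 stood at 6.5 FPKM in luciferase embryos alone. Nlrp12 stood at 0 in untreated, 4.91 FPKM in luciferase, 44.7 FPKM in knockdown, 23.7 FPKM in H3.3 mRNA and 12.7 FPKM in H3.2 mRNA embryos. Against the untreated library the luciferase library was at least 4-fold lower for 6 of the 10 and higher for 3 (median -2.66). The widest differences were those of Nlrp4b, at 59.2 FPKM against a listed 0, Nlrp4a, at 61.3 against 0.83 FPKM, Nlrp4e, at 15.2 against 0.19 FPKM, and, in the other direction, Nlrx1, a mitochondrial NLR gene, listed at 0 against 17.3 FPKM.

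The oocyte genes, beside which the group can be read, numbered 4 of 13 below untreated embryos by 4-fold in the knockdown and 2 above, and 0 below and 10 above luciferase embryos. Of 12 early embryo genes past the filter, 5 stood below untreated and 8 below luciferase embryos by 4-fold in the knockdown, and 0 above either. In the H3.2 mRNA library, 6 of the 13 oocyte genes stood above luciferase embryos by 4-fold and 0 below, while 0 of the 12 early embryo genes stood above them and 7 below.

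In the knockdown, 2 of the 10 other NLRP genes were lower and 2 higher than in the untreated library (median -1.38), and 2 were lower and 5 higher than in the luciferase library (median 1.93). In the H3.2 mRNA library 6 were higher and 1 lower than in the luciferase library (median 3.16), and 0 were past 4-fold against the knockdown, though 8 of 10 differences were positive (median 1.39). Nlrp9c, a gene of the oocyte Nlrp9 cluster named after its values were seen, stood at 55.7 FPKM in H3.2 mRNA embryos and at 2.47 to 16.2 FPKM in the other libraries.

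**Figure D5:**
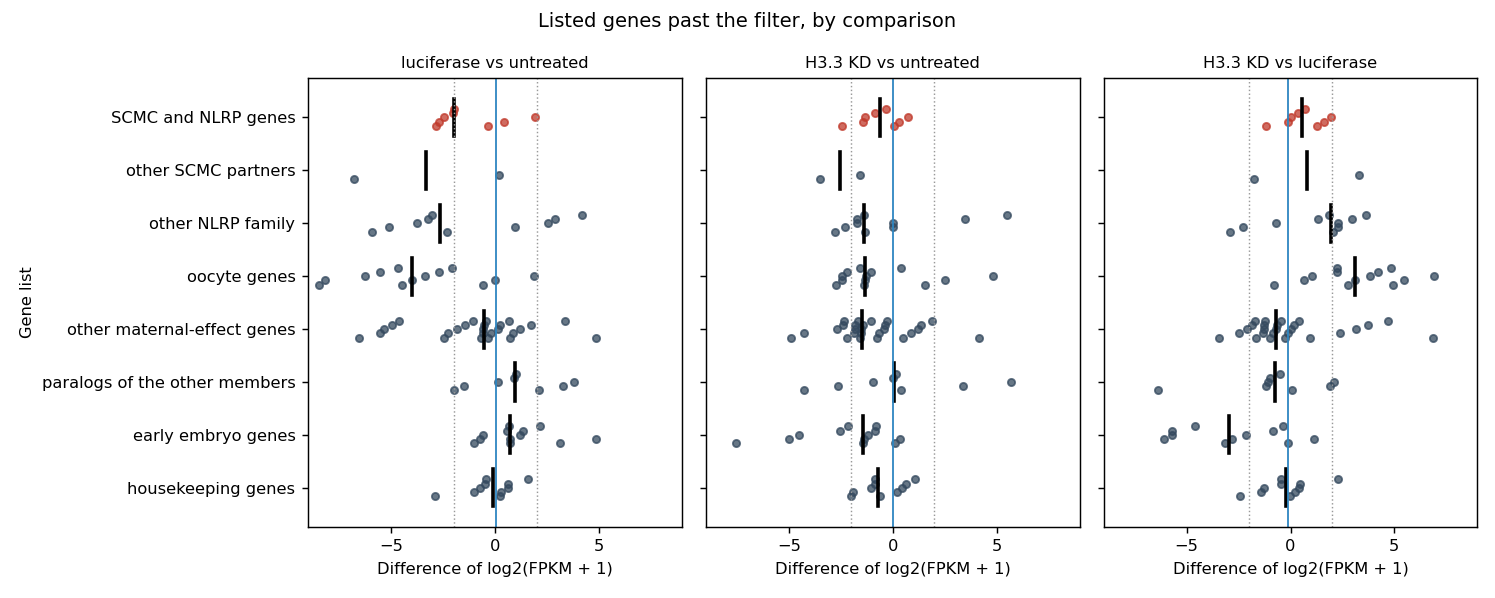
Points are genes of each list with a mean of at least 1 FPKM, placed by their difference of log2(FPKM + 1) in 3 comparisons between single libraries; black ticks are list medians, the blue line is the median of all tested genes, and dotted lines mark 4-fold. The oocyte genes have medians of -4.02 for luciferase against untreated and 3.09 for the knockdown against luciferase, and the SCMC and NLRP genes have -1.99 and 0.53.

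No single profile stood for the group. After each gene was centred on its mean over the 5 libraries, the distance (Euclidean, on the log2 scale, at the deposited scaling) to the mean profile of the 8 genes was 0.85 for Tle6, the nearest, 2.95 for Nlrp14 and 3.11 for Ooep, the farthest. The closest pair was Nlrp4f with Npm2 at 0.83, then Nlrp2 with Nlrp5 at 0.95, and the most distant pair was Nlrp14 with Ooep at 5.87. The 10 genes outside the group that lay nearest to its mean profile were Slc25a10, Isca1, Mlec, Dhx35, Rnf187, Cars, Orc2, Ranbp9, Fntb and Gk5, at 0.27 to 0.39. All 10 were nearer to that mean than any of the 8 genes was, over 5 libraries. They were picked as the nearest of all tested genes, and averaging evens out the 8 genes. Nothing about the group follows from this order. Slc25a10, a mitochondrial carrier gene and the nearest, stood at 136 FPKM in untreated, 50.1 FPKM in luciferase, 70.2 FPKM in knockdown, 74.0 FPKM in H3.3 mRNA and 101 FPKM in H3.2 mRNA embryos.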

How the data were processed

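RNA-seq was done on 5 libraries, 1 per group, from Illumina TruSeq preparations labelled SR 51, read here as single reads of 51 bases. FPKM values were made by the authors with TopHat and Cufflinks on mm9, per the submitters' processing notes, and each deposited file gives 1 FPKM value for each of 22026 symbols. Versions, depth and strand handling are not given in the sources used here. FPKM is relative to the library's total, so abundant transcripts shift all others.

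From these, differences of log2(FPKM + 1) were computed in 7 comparisons on the 13144 genes whose mean reached 1 FPKM, and counted from 4-fold (Python 3.11.15, pandas 2.3.3, statsmodels 0.14.6 for the lowess length trend). The script was checked on simulated data. With 1 library per group no test was run. The 8 genes and the 10 lists (129 of 131 list entries matched a symbol, older ones through RefSeq synonyms) were chosen with earlier results of these data known. Named genes were the 8 genes, their 2 partners, up to 4 genes of a list by size of difference, and the 10 nearest profiles, clone names left out. Genes named outside this rule, after their values were seen, are Nlrp6, Nlrp9c, Nlrp12, Npm1, Tle5, marker genes and genes listed at 0. Lengths came from the longest GENCODE M21 transcript (98.7% of tested genes). Alternatives were other pseudocounts, scalings, folds and filters, and removal of the length trend.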

Additional observations from a re-analysis of the deposited data

How the results depend on the processing

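Of 448 differences of the 8 genes set under 8 alternatives, 378 changed neither sign nor side of the threshold. The 378 include differences of 0 for Nlrp2, counted so even where an alternative gave them a sign. Of the others, 28 no longer reached the threshold, 21 came to pass it, 21 changed sign while under it, and 0 passed it in the opposite direction. The 2-fold and 8-fold alternatives moved only the threshold, so no direction could change under them. The 2-fold threshold gave 16 of the differences that came to pass it, and the 8-fold threshold 12 of those that no longer reached it. Counts of genes past the threshold are small and moved as follows. For the other pseudocounts and folds the share of all tested genes was not computed. Those counts therefore have no background to be read against. With a pseudocount of 0.1 FPKM, 1 gene was higher in the knockdown than in luciferase. With a pseudocount of 10 FPKM, 1 gene was lower in luciferase than in untreated, 0 lower in knockdown than in untreated, 1 lower in H3.3 mRNA than in untreated, 1 higher in H3.2 mRNA than in the knockdown and 0 higher than in luciferase. Upper-quartile scaling gave 1 gene higher in luciferase than in untreated (Nlrp14) and 1 lower in H3.3 mRNA than in untreated. The shares of all tested genes were 28.6% and 10.3%. Quantile normalization gave 1 higher in knockdown than in luciferase, and 1 higher in H3.2 mRNA than in the knockdown and 1 than in luciferase. In the same order, 12.5%, 13.9% and 9.93% of all tested genes were higher. Median-of-ratios scaling gave 1 higher in luciferase than in untreated and 1 higher in knockdown than in luciferase, against 24.0% and 10.2% of all tested genes. At 2-fold, 1 was higher in luciferase than in untreated, 3 lower in knockdown than in untreated, 1 lower and 3 higher in knockdown than in luciferase, 1 lower in H3.3 mRNA than in knockdown, 1 higher in H3.3 mRNA than in untreated, and 1 lower and 5 higher in H3.2 mRNA than in luciferase. At 8-fold the counts were 0 for luciferase, knockdown and H3.3 mRNA below untreated, and 0 for H3.2 mRNA above knockdown and luciferase. Of alternatives added after the data were seen, quantile normalization left 3 genes of the H3.3 mRNA library between the controls, and upper-quartile scaling 1 of the H3.2 mRNA library. The cause was not tested. Without a filter, the share of all genes past 4-fold was 13.03% to 22.7% in the 7 comparisons. Upper-quartile scaling moved the median of all genes by 0.62 for luciferase against untreated, the widest such shift. The summed FPKM of the 8 genes stayed within 1.5 times of the reported value under the 3 scalings in every library. The order of the libraries was not kept. With upper-quartile scaling the sums were 549 in untreated, 479 in luciferase, 527 in knockdown, 570 in H3.3 mRNA and 996 in H3.2 mRNA embryos. The controls were then closer together than as deposited, and the untreated library was below the H3.3 mRNA library. Depth is unknown, so levels under a few FPKM, such as those of Nlrp2, have no stated precision. No paired analysis was possible because each group has 1 library and the labels give no replicate numbers.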

Other observations

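The relatives of the non-NLRP genes are a list of 11 paralogs, of which 8 passed the filter. Between knockdown and luciferase embryos, 1 was lower and 1 higher by 4-fold (median -0.75). Tle4, a Groucho-family corepressor gene, was lower, at 1.13 against 175 FPKM, and it stood at 40.1, 33.5 and 26.2 FPKM in untreated, H3.3 mRNA and H3.2 mRNA embryos, so that the knockdown library alone was near 0. Npm3, a nucleoplasmin-family gene, was higher, at 26.7 against 5.4 FPKM, and stood at 24.0 to 31.6 FPKM in all libraries but luciferase. Padi4, another deiminase gene, stood at 50.3 against 12.7 FPKM, and Tle3 at 7.06 against 17 FPKM, both under the threshold. Npm1, the ubiquitous nucleophosmin gene, was chosen after its values were seen: it stood at 17305 and 19230.3 FPKM in untreated and luciferase embryos and at 9041, 9801 and 6774 FPKM in knockdown, H3.3 mRNA and H3.2 mRNA embryos. Tle5, listed as Aes and also chosen after its values were seen, stood at 10.53 FPKM in untreated embryos and at 50.1 to 118 FPKM in the other libraries.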
